A study of Rattus norvegicus with 9 samples.

Results

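Icam1 and Vcam1 encode the cell surface proteins ICAM-1 and VCAM-1, to which leukocytes attach. Both genes were taken by their Ensembl rat identifiers, ENSRNOG00000020679 for Icam1 and ENSRNOG00000014333 for Vcam1, which are 2 of the 30560 genes in the deposited table. RNA had been sequenced from 9 libraries of HBZY-1, a cell line of rat mesangial cells. Mesangial cells sit between the capillary loops of the glomerulus, the filter of the kidney, and hold them in place. Of the libraries, 3 came from a group treated at high dose with lyophilized powder of the leech Poecilobdella manillensis, extracted in water (extract), 3 from the LPS-induced model (LPS) and 3 from control cells (control). LPS is lipopolysaccharide, part of the outer membrane of Gram-negative bacteria, and provokes inflammation. All 3 groups are the same cell line. The labels give no dose or exposure time, and do not say whether the extract cells also received LPS or how the control cells were handled. The assay read RNA from a single cell line, so the values concern the RNA for these proteins and not leukocyte adhesion.

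ICAM-1 is a ligand of the leukocyte integrins LFA-1 and Mac-1, and VCAM-1 is a ligand of the integrin VLA-4. Cytokines and LPS raise both proteins on many cell types, largely through the transcription factor NF-kB, and in inflamed glomeruli both have been found on resident cells as well as endothelium. VCAM-1 differs from ICAM-1 in that many resting cells make little of it.

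The proximal promoters are shown because both genes are known NF-kB targets. The windows run from 250 bases before to 50 bases after the gene start used in the RefSeq table of rat promoters (assembly GRCr8). The Icam1 window is chr8:27829595-27829894 on the plus strand and the Vcam1 window is chr2:206742734-206743033 on the minus strand. For Icam1 the start used in that table lies 157 bases downstream of the outermost gene start annotated in the same assembly, and for Vcam1 the 2 starts coincide. Positions below are distances from the start used in the table. Each window is printed 5′ to 3′ along its gene. Capitals mark matches, on either strand, to an NF-kB motif in a first form (GGG, 5 bases of any kind, then CC) or a second form (GGAA, 3 bases of any kind, then CC).
Icam1: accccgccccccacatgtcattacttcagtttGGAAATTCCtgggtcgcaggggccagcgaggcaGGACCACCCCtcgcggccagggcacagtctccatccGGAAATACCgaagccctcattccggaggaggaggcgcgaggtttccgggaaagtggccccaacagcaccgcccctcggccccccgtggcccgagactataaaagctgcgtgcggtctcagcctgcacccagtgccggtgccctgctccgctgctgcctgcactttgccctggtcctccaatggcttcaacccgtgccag
Vcam1: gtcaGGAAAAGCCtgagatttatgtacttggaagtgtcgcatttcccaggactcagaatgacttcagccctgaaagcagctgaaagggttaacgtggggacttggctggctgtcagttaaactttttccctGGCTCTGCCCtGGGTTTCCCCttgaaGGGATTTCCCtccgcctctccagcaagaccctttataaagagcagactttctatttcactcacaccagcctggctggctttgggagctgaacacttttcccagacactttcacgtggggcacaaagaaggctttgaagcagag

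The Icam1 window held 3 NF-kB matches that did not overlap each other. They were ggaaattcc at -218 to -210 and ggaaatacc at -149 to -141 on the gene strand, and ggaccacccc at -185 to -176, which matched on the opposite strand. The Vcam1 window held gggtttcccc at -108 to -99 and gggatttccc at -93 to -84, both matching the first form on the gene strand and standing in tandem. The second of these also contained a match to the second form on the opposite strand, at -93 to -85. Beside the tandem pair stood ggctctgccc at -119 to -110, on the opposite strand, and farther upstream ggaaaagcc at -246 to -238. The letters ggaaattcc, gggtttcccc and gggatttccc also match their form on the opposite strand. Such double matches are listed once, on the gene strand. NF-kB matches are common: of 33469 rat promoter windows of the same length, 47.3% held the first form, 18.3% held the second and 52.4% held at least 1 of the 2 forms. The first form occurred 2 or more times in 25.4% of windows. A match to the interferon regulatory factor motif (GAAA, 2 bases of any kind, then GAAA), present in 3.92% of windows, lay in the Vcam1 window at -46 to -37 on the opposite strand, and the Icam1 window held no match to these letters. Both windows held the TATA box letters TATAAA, found in 14.2% of windows, from -53 in Icam1 and from -60 in Vcam1. In Vcam1 those letters overlapped a second match on the opposite strand. No match to the AP-1 letters TGANTCA (7.33% of windows) or the GATA letters GATAAG (7.05%) was found in either window. These matches describe letters and were not tested as binding sites.

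**Figure D1:**
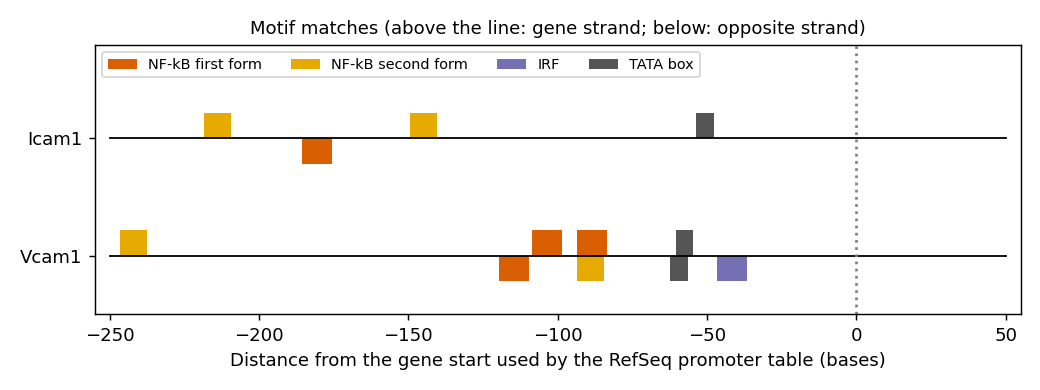
Motif matches in the promoter windows of Icam1 (upper line) and Vcam1 (lower line) by distance in bases from the gene start used in the RefSeq table. Boxes above a line match on the gene strand and boxes below it on the opposite strand, with the tandem NF-kB pair of Vcam1 at -108 to -84. A match to the same form on both strands is drawn above the line only.

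The 2 genes stood at opposite ends of the range of expression in these cells. Levels are given as TPM, the share of a gene's transcripts in a library scaled to 1000000, a unit that takes account of transcript length and so allows levels of different genes to be set side by side. The lowest Icam1 value of any library was 85.1 TPM and the highest Vcam1 value of any library was 0.1 TPM, a ratio of 851. Among genes above 0 TPM in a group, 1713 stood above Icam1 in extract cells, 637 in LPS cells and 1383 in control cells. Icam1 was thus among the top 10.05% of these genes in extract, the top 3.71% in LPS and the top 8.01% in control cells. By the same ranking of group means, 87.9% of these genes stood above Vcam1 in extract, 97.3% in LPS and 86.6% in control cells. Ranked instead by highest value, 12.5% of the 18808 genes above 0 TPM in any library never exceeded that of Vcam1.

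**Figure D2:**
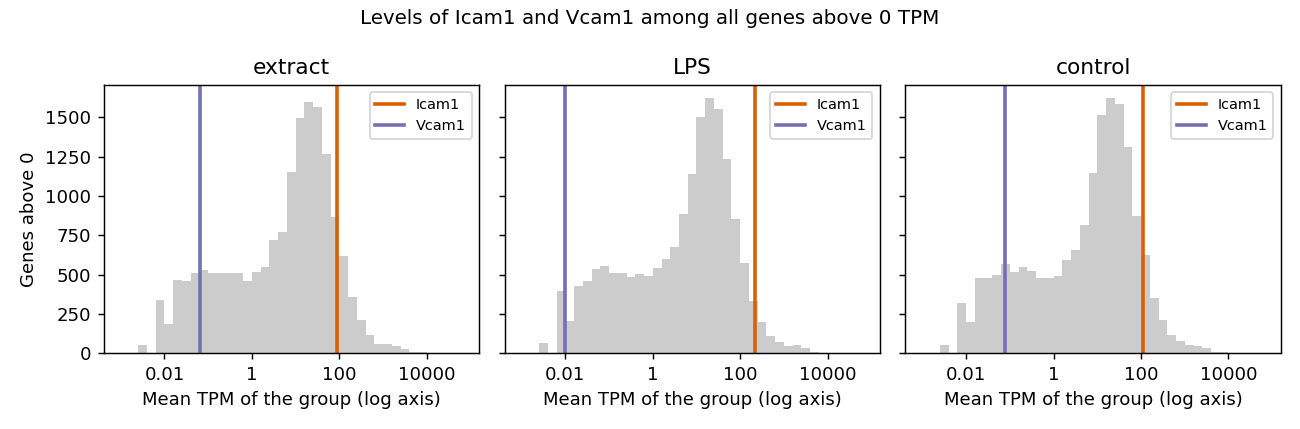
Number of genes by mean TPM of a group (log axis) for genes above 0 TPM, in extract, LPS and control cells, with lines at the mean of Icam1 and of Vcam1. Icam1 lies in the right tail in each group, farthest to the right in LPS cells at 212.8 TPM, and Vcam1 lies in the left tail at under 0.1 TPM.

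Icam1 was highest in LPS cells and lowest in extract cells. It stood at 94.57, 85.1 and 86.47 TPM in the extract libraries, at 208.94, 212.15 and 217.45 TPM in the LPS libraries and at 108.2, 110.73 and 108.6 TPM in the control libraries. No value of one group fell within the range of another, and extract replicate 1 lay nearest to control. The means were 88.7 ± 5.1 TPM in extract, 212.8 ± 4.3 TPM in LPS and 109.2 ± 1.4 TPM in control cells (SD, n = 3 each). The coefficient of variation was 5.77% in extract, 2.02% in LPS and 1.25% in control cells. The labels describe the replicates as biological without naming separate cultures, so the p-values below measure only the spread between these libraries. In bulk RNA of this kind, fewer cells expressing Icam1 and less Icam1 RNA per cell cannot be told apart.

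**Figure D3:**
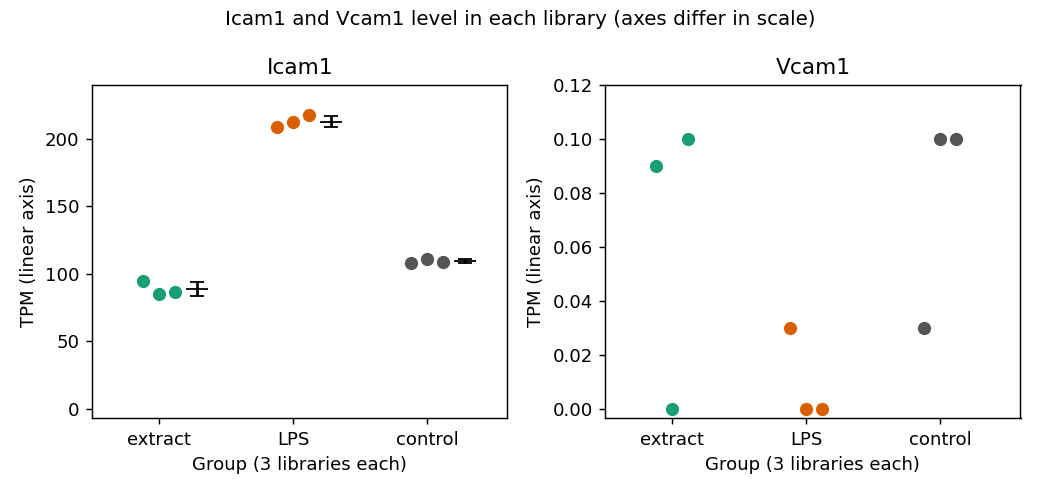
Level of Icam1 (left) and Vcam1 (right) in TPM on linear axes of different scale, with 1 point per library and, for Icam1, the mean and SD of the 3 libraries beside the points. The Icam1 groups do not overlap, with LPS at 208.94 to 217.45 TPM. All Vcam1 values lie between 0 and 0.1 TPM, where extract overlaps both other groups and LPS meets control only at 0.03 TPM.

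The comparison of LPS with control cells asked how the inflammatory model differed from control cells. Icam1 rose in LPS cells by 0.96 ± 0.041 on the log2(TPM + 1) scale (SE, with a 95% interval of 0.86 to 1.05), with limma adjusted p = 2.56e-07. On the linear scale the mean in LPS cells was 1.95 times that in control cells, and the least separated pair of libraries still differed 1.89 times. The call itself was not unusual, since 40.7% of the 12192 genes tested were called in this comparison. Calls in the upward direction were rarer, at 9.79% of genes with TPM as deposited and 17.4% after median-of-ratios rescaling. Downward calls were 30.9% and 18.6% under the same scalings. The size of the Icam1 change stood further out than the call, with 214 tested genes (1.76%) higher in LPS cells by more. The 1193 genes called higher had a median log2 fold change of 0.33, and all genes tested one of -0.08.

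The comparison of extract with LPS cells asked what set extract cells apart from the model. Icam1 fell by 1.25 ± 0.041 on the log2(TPM + 1) scale in extract cells (SE, with a 95% interval of -1.35 to -1.16), with limma adjusted p = 3.59e-08. The mean in extract cells was 0.417 times that in LPS cells, a difference of -124.1 TPM. The highest extract library lay 114.4 TPM below the lowest LPS library. In this comparison 59.4% of genes were called, and 25.0% were called lower (29% after median-of-ratios rescaling). Further reductions than that of Icam1 were found for 179 tested genes (1.47%), against a median log2 fold change of -0.36 among the 3050 genes called lower.

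The comparison of extract with control cells asked how far the extract cells stood from control cells. Icam1 was also lower in extract than in control cells, by a smaller amount. It fell by 0.30 ± 0.041 on the log2(TPM + 1) scale (SE, with a 95% interval of -0.39 to -0.20), with limma adjusted p = 0.000254. The mean in extract cells was 0.813 times that in control cells, and the highest extract library lay 13.6 TPM below the lowest control library. Of all genes, 51.7% were called here, and 29.4% were called lower (24.8% after median-of-ratios rescaling). This change of Icam1 was near the middle of those called: the median log2 fold change of the 3582 genes called lower was -0.33, and 2299 tested genes (18.9%) fell by more. The comparisons share libraries in pairs, so the 3 values for Icam1 are not independent of each other.

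**Figure D4:**
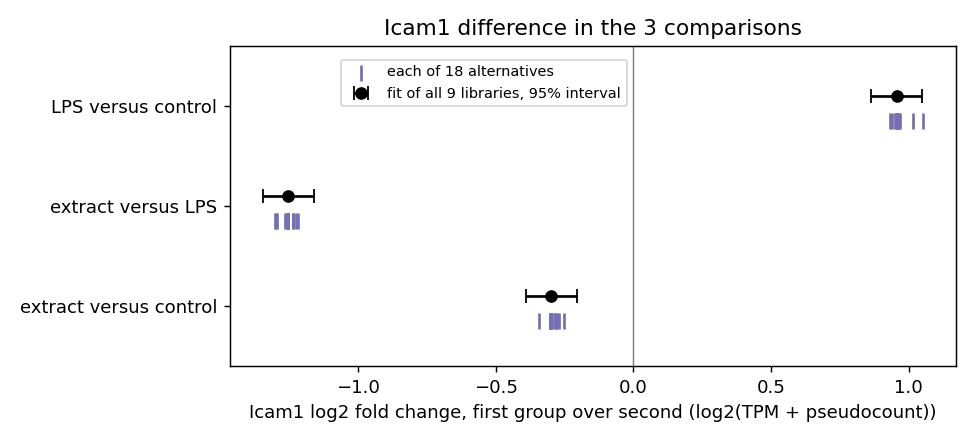
Icam1 log2 fold change, first group over second, in the 3 comparisons, with the fit of all 9 libraries and its 95% interval (circles) and the values under 18 alternative settings (ticks). All ticks lie on the same side of 0 as the circle of their comparison. Several settings cannot move the fold change, so their ticks coincide at its value.

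**Figure D5:**
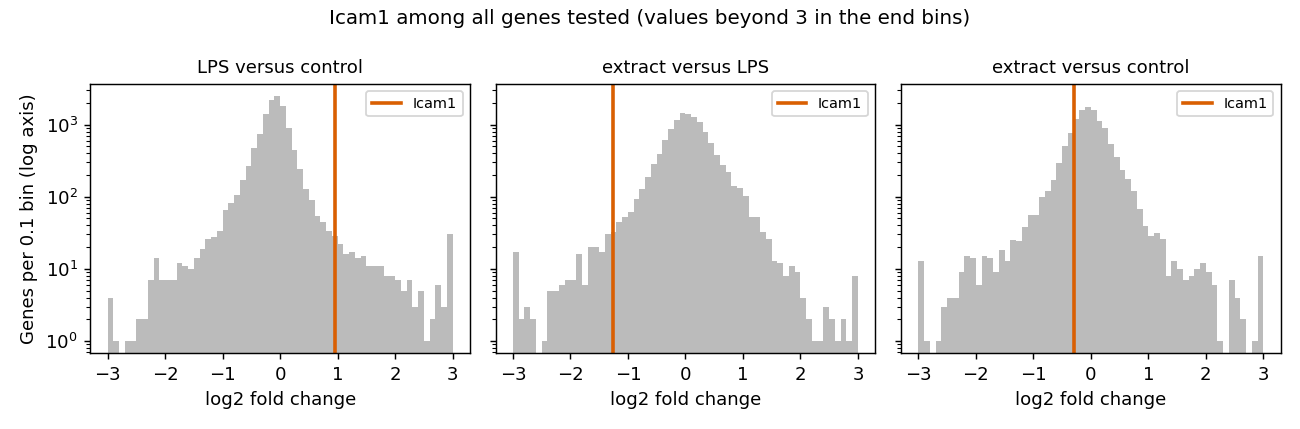
Distribution of the log2 fold change over the 12192 genes tested in each comparison (log axis for the number of genes), with a line at Icam1. The line lies in the right tail for LPS versus control (0.96), in the left tail for extract versus LPS (-1.25) and inside the bulk for extract versus control (-0.30).

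In the transcript table the Icam1 value rested on 1 transcript, ENSRNOT00000028066, whose TPM was the same as that of the gene in all 9 libraries. Transcripts were linked to a gene by their place in the table and by their sum. A neighbouring transcript listed at 0 in every library could belong to Icam1 or to the gene before it. Tested among 19383 transcripts, ENSRNOT00000028066 was higher in LPS than in control cells (limma adjusted p = 2.12e-06, where 23.0% of transcripts were called). It was lower in extract than in LPS cells (limma adjusted p = 3.95e-07, 39.1% called) and lower in extract than in control cells (limma adjusted p = 0.000856, 32.0% called). These tests use the same values as the gene and so are not further evidence.

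Vcam1 was at or near 0 in every library of every group. It stood at 0.09, 0 and 0.1 TPM in the extract libraries, at 0.03, 0 and 0 TPM in the LPS libraries and at 0.03, 0.1 and 0.1 TPM in the control libraries. The LPS range met the control range only at 0.03 TPM, and the extract range overlapped both. The libraries listed at 0 were extract replicate 2 and LPS replicates 2 and 3. The file is rounded to 0.01 TPM and keeps no read counts, so how many reads lie behind a value of 0.03 or 0.1 TPM is unknown, and a 0 says only that the gene is listed at 0. With a mean below 1 TPM, Vcam1 did not enter the test of the 12192 genes. In the fit without that filter, over 18808 genes, its log2(TPM + 1) difference was -0.09 ± 0.044 in LPS versus control, with a 95% interval of -0.19 to 0.01 (limma adjusted p = 0.188). In extract versus LPS it was 0.07 ± 0.044, with an interval of -0.03 to 0.18 (limma adjusted p = 0.258). For extract versus control it was -0.02 ± 0.044, with an interval of -0.12 to 0.08 (limma adjusted p = 0.808). The sign of this last difference turned without extract replicate 2, to 0.025. Each ± here is an SE that borrows from the spread of other genes. With values this near 0, the lower bound in LPS versus control lies beyond what full absence of Vcam1 would give. The intervals are therefore no limit of detection, and they do not show that the groups are alike.

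The few hundredths of a TPM assigned to Vcam1 were spread over 2 of 3 linked transcripts. ENSRNOT00000019377 was listed at 0.1 TPM in extract replicate 3 and control replicates 2 and 3, and at 0 elsewhere. ENSRNOT00000078806 was listed at 0.09 TPM in extract replicate 1 and at 0.03 TPM in LPS replicate 1 and control replicate 1. ENSRNOT00000077972 was listed at 0 in all libraries. No library had a value above 0 for more than 1 of the 3, and a transcript listed at 0 just before them could belong to Vcam1 or to its neighbour.

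The 2 genes were compared with each other through the difference of their log2(TPM + 1) values in each library. This ratio averaged 6.40 ± 0.075 in extract, 7.73 ± 0.051 in LPS and 6.68 ± 0.046 in control cells (SD, n = 3 each). It differed among the 3 groups by an exact permutation test over all 1680 assignments of the libraries (p = 0.00357, the smallest such a test can give). Vcam1 was near 0 in every library, so the ratio mostly follows Icam1, whose groups did not overlap. The test therefore adds no separate evidence that the 2 genes behaved differently. Between pairs of groups the ratio was higher by 1.05 in LPS than in control cells. It differed by -1.33 in extract versus LPS and by -0.28 in extract versus control cells. Each pair had an exact two-sided permutation p of 0.1, which is the smallest 3 libraries against 3 allow. On this scale Icam1 made up 0.96 of the 1.05 in LPS versus control. The split depended on the pseudocount: with 0.1 in place of 1 the ratio differed by 1.63 in LPS versus control, of which the Vcam1 difference of -0.67 was a part, and the exact permutation p over the 3 groups was 0.0214.

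Among the 12191 other genes tested, the profile most like that of Icam1 over the 9 libraries belonged to ENSRNOG00000003778, with a Pearson correlation of 0.998 on the log2(TPM + 1) scale, given as a description. The identifiers were not paired with names here, so nothing is said of what this gene encodes. It averaged 5.18 ± 0.54 TPM in extract, 29.7 ± 1.5 TPM in LPS and 8.10 ± 0.69 TPM in control cells (SD, n = 3 each), a lower level than Icam1 with wider differences. In LPS versus control its log2 fold change reached 1.75 ± 0.078 (SE). The values for extract against LPS and against control cells were -2.31 ± 0.078 and -0.56 ± 0.078. A correlation above 0.9 with Icam1 was shown by 334 genes (2.74%), and one above 0.98 by 34 genes (0.279%). These correlations run over 9 libraries in 3 groups and so mostly reflect the order of the group means.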

How the data were processed

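Total RNA of 9 libraries, 3 per group, was sequenced by the authors. The authors deposited TPM per gene and per transcript, rounded to 2 decimals, for 30560 genes and 54991 transcripts. Per the submitters' processing notes, fastp, HISAT2 2.1.0 and RSEM 1.3.3 were used, in roles not stated. The sources used here do not give build, annotation or strandedness. TPM sums to 1000000 in each library and keeps no depth, so depth is unknown and no counting interval or floor is given; precision rests on the spread between libraries.

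Columns were matched to the code at the head of each title. Between 15479 and 15837 genes were above 0 TPM in a library. The 12192 genes averaging 1 TPM or more were taken as log2(TPM + 1), a scale that understates changes of low genes, and fitted with limma 3.58.1 (R 4.3.3) to the 9 libraries together, using two-sided moderated tests with a mean-variance trend and 6 residual degrees of freedom. Benjamini-Hochberg adjusted p-values below 0.05, taken over all genes or transcripts of a comparison, were calls. The procedure was tested on simulated independent normal values in which few genes differed, unlike these data, where many were called.

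The members and lists were chosen with earlier results of these data known. The rule for named genes was both members, their transcripts and the closest identifier to each member by correlation; none is given for Vcam1, whose values near 0 hold no profile. The reference of 47357 RefSeq genes (GRCr8) carries 0 Ensembl identifiers, so lists of adhesion, integrin, NF-kB and cell type marker genes were not analysed here, and the mesangial label was not checked. Promoters of both members were matched by symbol. Replicate numbers were not taken to pair libraries. Alternatives were other pseudocounts, filters, scalings, a replicate block, fits of 2 groups, no trend and leaving out each library.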

Additional observations from a re-analysis of the deposited data

How the results depend on the processing

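Icam1 kept its direction and its call in all 3 comparisons under the 18 alternatives run for each. Its log2 fold change lay between 0.93 and 1.05 in LPS versus control (limma adjusted p from 1.06e-07 to 9.30e-06), between -1.30 and -1.22 in extract versus LPS (1.24e-08 to 1.30e-05) and between -0.34 and -0.25 in extract versus control (8.90e-05 to 0.00173). With 1 library left out it ranged from 0.94 to 0.97, from -1.30 to -1.23 and from -0.34 to -0.27 in the same order. The Icam1 transcript, which repeats the gene values, and the Icam1 to Vcam1 ratio, which mostly follows them, also kept their calls. The counts of all genes called stayed within 1.5 times. The LPS-control difference of the ratio went to 1.63 with a pseudocount of 0.1 (exact permutation p = 0.0214).

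The replicate block changed no call: Icam1 had log2 fold changes of 0.96, -1.25 and -0.30 with limma adjusted p of 8.48e-06, 1.43e-06 and 0.00121. Permuting labels within replicate number gave p = 0.0278 for the ratio by an exact test, the smallest that test can give. The ratio mostly follows Icam1, whose groups did not overlap, so this p adds no separate evidence. Deviations of same-numbered libraries correlated at -0.055 to 0.095, and those of differently numbered libraries at -0.110 to 0.089. With 3 libraries per group, this cannot show whether same-numbered libraries shared a culture or a run.

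The Vcam1 difference, which was tested only in the fit without a filter, moved with the pseudocount. With a pseudocount of 0.1 it was -0.67 in LPS versus control, and 0.52 and -0.15 in extract against LPS and against control cells, and with 5 it was -0.019 and 0.015 in the first and second of these. The values lie far below a pseudocount of 1, so the size of the fold depends on it. Leaving out 1 library moved it too. For extract versus control it was -0.019 with all libraries, 0.025 without extract replicate 2, -0.037 and -0.044 without extract replicates 1 and 3, -0.050 without control replicate 1 and -0.0028 without control replicate 2 or 3, so its sign rests on single libraries. In extract versus LPS it was 0.073, with a range of 0.048 (without extract replicate 3) to 0.117 (without extract replicate 2), and in LPS versus control -0.092, with a range of -0.123 to -0.076. Without read depth, whether Vcam1 lacked RNA or lacked reads was not examined.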
